A study of Rattus norvegicus with 18 samples.

Results

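Cultured bone marrow mesenchymal stem cells (BMSC) of rats fed a high-fat diet (HFD) for 4 months were compared with those of rats fed it for 1 month. The comparison takes the 3 arrays titled as 4-month HFD and the 3 titled as 1-month HFD, 6 of the 18 arrays in the study, and all their probe sets. Sprague-Dawley rats entered the study at 6 weeks of age. HFD was 60% basal diet with 20% lard, 10% sucrose and 10% egg yolk powder, and the normal diet (ND) of the control arm was 100% basal diet. The cells grew out of whole marrow plated directly in low-glucose medium with serum. The sample labels give passage 3 and the series text passage 1, and this could not be settled. The submitters state that surface markers were checked before the RNA was taken. The labels name no genetic change and no agent besides the diet. The rats grew older over the same months, so time on the diet and age cannot be told apart within HFD; the ND arrays at 1 and 4 months carry the same ageing without the diet. Nothing in the labels ties each array to an animal of its own, so p-values measure the spread between these arrays, which may be technical.

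Mesenchymal stem cells are the adherent stromal cells of the marrow. They give rise to bone, cartilage and fat cells, secrete collagens and other matrix, and carry Thy1 and Eng at the surface, while the leukocyte phosphatase Ptprc is used to tell them from blood cells. Macrophages of the marrow also stick to plastic and can persist in cultures plated from whole marrow. The NF-kB pathway, through which cytokines and bacterial products act, switches on chemokine genes together with its own inhibitors, and is used by both cell types.

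The 6 arrays did not fall into 2 even sets. Over the tested probe sets, HFD 1-month replicates 1 and 3 correlated at 0.989 with each other, and the 4-month arrays at 0.984 to 0.987 among themselves. HFD 1-month replicate 2 correlated at only 0.955 and 0.959 with the other arrays of its own group and at 0.976 to 0.979 with the 4-month arrays. The gap between the 3' and 5' probe sets for beta-actin, a sign of RNA degradation, was 0.59, 0.62 and 0.64 log2 units at 1 month and 0.58 to 0.59 at 4 months, with replicate 2 in the middle of its group. For Gapdh the gap was 0.03, 0.10 and 0.02 at 1 month and 0.02, 0.12 and 0.06 at 4 months, with replicate 2 the highest of its group. Why that array lies near the 4-month arrays was not tested. Medians of gene lists are therefore given with the values they take when single HFD arrays are left out, wherever these move them by over 1.5 times or turn their sign.

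No probe set passed the test. Of 21729 probe sets, 0 (0%) reached an adjusted p under 0.05 in limma's moderated test with Benjamini-Hochberg adjustment, and the lowest adjusted p was 0.182. At an unadjusted p under 0.05 there were 1721 probe sets (7.92%), 781 higher (3.59%) and 940 lower (4.33%) at 4 months, where 1086 would be expected by chance. Among the 11446 named genes, each read from its brightest tested probe set, 393 (3.43%) were higher and 504 (4.4%) lower at that unadjusted level. The arrays of the 2 groups did not overlap, with all 4-month values above or all below all 1-month values, for 985 genes higher (8.61%) and 973 lower (8.5%) at 4 months. Signs were balanced, with 50.3% of genes positive, 49.7% negative and a median log2 fold change of 0. Without HFD 1-month replicate 2, the shares without overlap were 22.8% higher and 19.4% lower. Fewer arrays separate more easily, so these shares cannot be compared with those above. In that fit 2 probe sets passed, named here after their values were seen: the elastic fibre gene Mfap4 at -3.02 and the immunoglobulin-like receptor Milr1 at 3.34. With limma's array weights, which gave that array 0.485 and HFD 1-month replicates 1 and 3 1.58 and 1.92, 434 probe sets passed, 172 higher and 262 lower.

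The lowest moderated t belonged to Chn2, which encodes beta-chimaerin, a protein that switches off the GTPase Rac. Its log2 intensity was 4.79, 4.68 and 4.57 on the 1-month arrays and 3.28, 3.61 and 3.43 on the 4-month arrays. All 3 later values lay below all 3 earlier ones, close to the filter level of 3.22 log2 units under which the dimmest probe sets were left out. The log2 fold change, 4 minus 1 month, was -1.24 ± 0.20 (SE, n = 3 per group; limma adjusted p = 0.182), and a second probe set of the gene gave -0.68. In ND the same probe set stood at 3.40 to 3.81 at 1 month and 3.45 to 4.20 at 4 months, so the 1-month HFD arrays were the high ones.

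Septin4, a septin of the cytoskeleton, had the largest fold among these leading genes. It read 7.78, 6.14 and 7.22 at 1 month and 4.70, 4.20 and 3.67 at 4 months, a log2 fold change of -2.86 ± 0.52 (limma adjusted p = 0.211). The tissue plasminogen activator gene Plat read 7.76, 7.41 and 7.84 and then 6.03, 5.98 and 6.29, or -1.57 ± 0.30 (limma adjusted p = 0.22). For both genes the groups were separate, and HFD 1-month replicate 2 was the lowest of its group. The chondroitin sulfate synthase Chsy1 stood at -1.04 ± 0.21, the guidance cue Sema6a at -1.25 ± 0.23 and the dehydrogenase Bdh2 at -1.20 ± 0.21. Their 4-month values lay below every 1-month value too. Sema6a and Septin4 had ND values of -1.58 ± 0.23 and -2.20 ± 0.52 over the same months, the latter from 6.39 to 7.38 at 1 month to 4.33 to 4.91 at 4 months.

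At the other end stood Junb, a subunit of the AP-1 transcription factor. It read 7.91, 7.81 and 8.09 at 1 month and 9.12, 8.73 and 8.49 at 4 months, a log2 fold change of 0.84 ± 0.19 (limma adjusted p = 0.335). The adrenergic receptor Adra1d stood at 1.42 ± 0.33, the phosphatase-like Ctdspl2 at 0.73 ± 0.17 and the scaffold protein Sash1 at 0.60 ± 0.14. Sash1 was tight in both groups, at 9.73 to 9.84 and then 10.32 to 10.52. Phyhd1, a dioxygenase, stood at 0.56 ± 0.13 and Cryzl2 at 0.48 ± 0.12. The 6 highest and 6 lowest genes had no overlap between the groups with HFD 1-month replicate 2 included. Over all genes the shares without overlap were 8.61% higher and 8.5% lower. All 12 passed with array weights, where 434 of 21729 probe sets passed. These genes were picked by their t on the same arrays, so neither result is independent support.

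**Figure D1:**
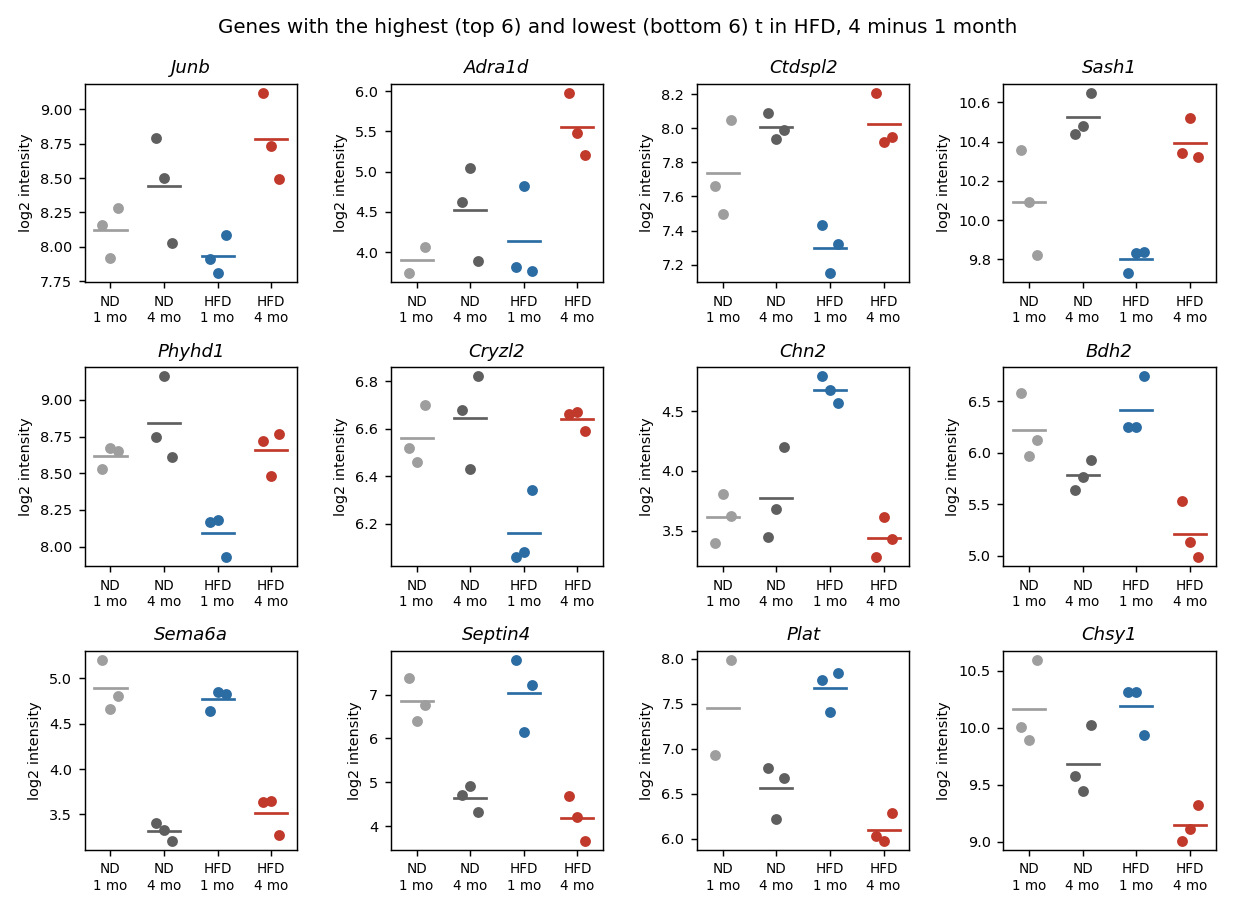
Log2 intensity of the 6 genes with the highest and the 6 with the lowest moderated t in HFD, 4 minus 1 month, on each array of the ND and HFD groups at 1 and 4 months; points are arrays and bars group means, and an ND 1-month array without a value is left out. The HFD groups are separate in every panel, and Chn2 is high on the HFD 1-month arrays only at 4.57 to 4.79, while Sema6a and Septin4 lie lower at 4 months in ND as well.

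Macrophage genes read higher at 4 months, and most of them were already high on 1 of the 1-month arrays. Of 32 tested macrophage and monocyte genes (39 in the list, 33 on the array), 30 stood higher at 4 months, the median log2 fold change was 1.19, and 0 passed. The mean of its 28 genes with a value on every array, relative to the average over all 18 arrays, was -0.55, 0.93 and -0.62 on the 1-month arrays and 1.46, 1.12 and 1.17 on the 4-month arrays. On 24 of the 32 genes HFD 1-month replicate 2 reached at least the lowest 4-month array. These are bulk samples, so more macrophages and more RNA per macrophage cannot be told apart. Cd68, a lysosomal protein of macrophages, read 8.30, 10.03 and 8.03 and then 10.29, 9.84 and 10.20, a log2 fold change of 1.32 ± 1.39. The mannose receptor Mrc1 read 8.73, 11 and 8.54 and then 10.84, 10.80 and 11. For both genes replicate 2 stood among the 4-month arrays and the other 1-month arrays lay well below.

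A smaller set of macrophage genes separated the groups even with that array in. These were 8 of the 32 (background 8.61%), among them the scavenger receptor Cd163 and the 3 chains of complement C1q. C1qb read 4.03, 4.40 and 3.62 at 1 month and 7.99, 7.32 and 6.40 at 4 months, a log2 fold change of 3.22 ± 1.36 (limma adjusted p = 0.592). C1qa read 5.51, 6.13 and 4.90 and then 8.96, 8.68 and 7.74, and C1qc 5.49, 5.72 and 4.96 and then 8.26, 8.12 and 7.10. On each chain HFD 1-month replicate 2 was only slightly above its own group and at least 1 log2 unit below the 4-month arrays, unlike Cd68 or Mrc1. Cd163, the haemoglobin scavenger receptor, had the largest value of the list, 4.34 ± 1.85, from 3.83, 7.02 and 3.69 to 9.69, 9.81 and 8.06. The Fc receptor Fcgr3a stood at 1.89 ± 0.96 and Ptprc at 1.02 ± 1.10, from 5.99 to 6.78 up to 6.99 to 7.64. In contrast Lyz2, the lysozyme of macrophages, stood at 0.24 ± 0.91, and the chemokine receptor Ccr1 at -0.19 ± 0.90. The standard errors of these genes pool the spread of all 18 arrays, and the genes varied within the other groups too. C1qb in ND ran from 3.05 to 6.18 at 1 month and read 3.37, 9.05 and 3.35 at 4 months, where a single array was high. Without HFD 1-month replicate 2 the list's median was 1.77, and 29 of 32 genes lay higher without overlap, against 22.8% of all genes.

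**Figure D2:**
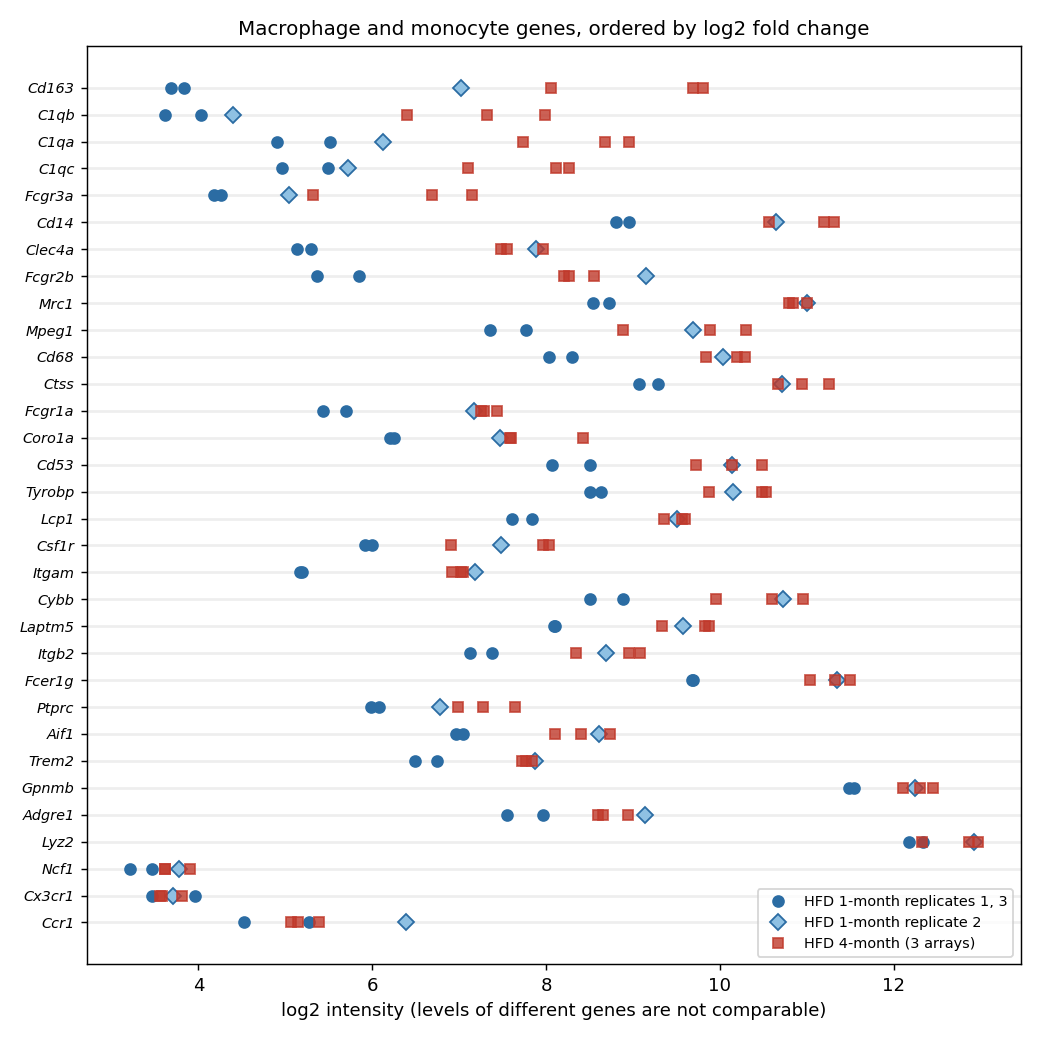
Log2 intensity of the 32 tested macrophage and monocyte genes on the HFD arrays, ordered by log2 fold change, with HFD 1-month replicate 2 as a pale diamond. For Cd68 and Mrc1 the diamond lies among or above the 4-month squares, whereas for C1qa, C1qb and C1qc it lies near the other 1-month arrays.

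MHC class II genes, which present antigen and are carried by activated macrophages, were mostly dim. Of 7 tested, 5 were positive with a median of 0.68 and 0 passed. RT1-Da read 2.95, 3.47 and 2.72 and then 3.82, 3.90 and 4.06, the single gene of the list without overlap (8.61% of all genes upwards and 8.5% downwards). The invariant chain Cd74 was at 3.31 to 3.85 at 1 month and at 3.73, 3.53 and 5.34 at 4 months, with 1 array apart.

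The NF-kB list, of pathway members, cytokines and chemokines, followed the same arrays. Of 27 tested genes, 22 were positive with a median of 0.88, 7 had no overlap upwards and 0 downwards (8.61% and 8.5% of all genes), and 0 passed. Its mean was -0.80, 0.46 and -0.66 on the 1-month arrays and 0.37, 0.58 and 0.62 on the 4-month arrays, with replicate 2 again among the later ones. Without that array the median was 1.22, and without HFD 1-month replicate 3 it was 0.53. The macrophage list mean moved over the same arrays, and its part in this was not tested.

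Nfkbiz, Tnfaip3 and Nfkbia, regulators of the pathway that are also its targets, were among the 5 genes of the list with the largest absolute t, and the 250 bases before their start sites are shown for the NF-kB sites they hold. They come from RefSeq on GRCr8, at chr11:58251471-58251720 on the plus strand for Nfkbiz, chr1:15543980-15544229 on the minus strand for Tnfaip3 and chr6:78597073-78597322 on the minus strand for Nfkbia. Each reads 5′ to 3′ towards the gene, and capitals mark matches to the NF-kB consensus of 10 bases on either strand.
Nfkbiz: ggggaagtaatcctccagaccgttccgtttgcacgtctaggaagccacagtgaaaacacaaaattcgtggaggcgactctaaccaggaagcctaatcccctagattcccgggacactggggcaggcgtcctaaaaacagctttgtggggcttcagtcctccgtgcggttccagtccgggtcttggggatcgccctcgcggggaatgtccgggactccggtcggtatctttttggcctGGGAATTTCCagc
Tnfaip3: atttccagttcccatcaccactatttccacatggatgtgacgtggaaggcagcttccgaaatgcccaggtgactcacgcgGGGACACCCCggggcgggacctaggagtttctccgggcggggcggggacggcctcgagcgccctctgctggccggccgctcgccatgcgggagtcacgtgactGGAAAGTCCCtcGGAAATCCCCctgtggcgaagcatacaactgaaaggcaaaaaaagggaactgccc
Nfkbia: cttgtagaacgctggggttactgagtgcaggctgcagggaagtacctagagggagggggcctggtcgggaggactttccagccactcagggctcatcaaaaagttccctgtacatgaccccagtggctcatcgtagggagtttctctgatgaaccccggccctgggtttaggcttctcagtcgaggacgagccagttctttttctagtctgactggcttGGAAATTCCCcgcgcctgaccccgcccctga
Nfkbiz and Nfkbia hold 1 match each, 4 and 22 bases before the start, and Tnfaip3 holds 3. Such a match was present in 10 of the 20 promoters found for the list (50%) and in 1185 of 33469 promoters in the RefSeq table (3.54%). The list was counted with 1 promoter per gene and the RefSeq table with every promoter. The list's genes were chosen as pathway members, cytokines and chemokines, so its share describes that choice and not these arrays. Il1rn and Nfkb1, the other genes of the list with the largest absolute t, were not among the 10. Those 10 held genes of both signs, such as Tlr2 at 1.28 and Il6 at -0.88. A match describes the letters only.

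Nfkbiz, a nuclear inhibitor-like protein, read 8.34, 8.95 and 8.43 at 1 month and 9.59, 9.93 and 9.31 at 4 months, or 1.03 ± 0.38 (limma adjusted p = 0.547), though a second probe set gave -0.04. Tnfaip3, the A20 ubiquitin editor that shuts the pathway down, read 5.45, 6.6 and 5.13 and then 6.54, 6.93 and 7.0. Nfkbia, which holds NF-kB in the cytoplasm, read 6.58, 7.71 and 6.39 and then 7.49, 7.85 and 8.76. For Tnfaip3 and Nfkbia HFD 1-month replicate 2 exceeded the lowest 4-month array, so the groups overlapped. The largest t of the list belonged to Il1rn, the decoy ligand of the interleukin-1 receptor. It read 6.11, 7.46 and 7.14 and then 9.16, 8.58 and 9.13, a log2 fold change of 2.05 ± 0.55 (limma adjusted p = 0.393) with no overlap. In ND it was already at 8.08 to 10.05 at 1 month and stood at -0.09 ± 0.55 over the same months. Nfkb1, a subunit of the factor, stood at 0.50 ± 0.20. Among members named after their values were seen, interleukin-1 beta (Il1b) read 4.76, 6.90 and 4.37 and then 6.09, 8.16 and 9.21, while Il6 stood at -0.88 ± 1.23.

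Immediate early genes, which respond within minutes to serum and stress, were positive for 19 of 22 tested members, with a median of 0.39. Here 8 genes had no overlap upwards and 2 downwards (8.61% and 8.5% of all genes), and 0 passed. Besides Junb, Ier2 read 7.53, 7.25 and 8.12 and then 8.93, 8.76 and 8.26, or 1.02 ± 0.31. Zfp36, which speeds the decay of cytokine mRNAs, stood at 0.65 ± 0.23 and the transcription factor Egr1 at 0.90 ± 0.43. Unlike the inflammatory genes, this list was lowest on HFD 1-month replicate 2, whose mean was -0.30 against -0.06 and 0.05 on the other 1-month arrays and 0.38, 0.09 and -0.13 on the 4-month arrays. Without it the median was 0.18, without HFD 1-month replicate 3 it was 0.60 and without HFD 4-month replicate 1 it was 0.25.

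Glycolysis and hypoxia genes were positive throughout. All 17 tested glycolysis genes and all 17 tested targets of the hypoxia response had positive values, with medians of 0.50 and 0.59, and 0 passed in either list. Their array means set HFD 1-month replicate 2, at 0.54 and 0.32, inside the range of the 4-month arrays, 0.33 to 0.61 and 0.15 to 0.58. The other 1-month arrays read -0.79 and -0.63 for glycolysis and -0.60 and -0.37 for hypoxia. The lactate transporter Slc16a1 read 8.07, 8.32 and 8.17 and then 8.61, 8.77 and 8.67, or 0.50 ± 0.15 (limma adjusted p = 0.42), and the phosphofructokinase Pfkp stood at 0.73 ± 0.24. Neither overlapped. The glucose transporter Slc2a1 read 7.43, 9.36 and 7.65 and then 9.27, 9.26 and 9.09, with replicate 2 the highest of all. Among hypoxia targets the oxidoreductase Ero1a stood at 0.74 ± 0.24 and the stress-induced mTOR inhibitor Ddit4 at 1.36 ± 0.61, from 7.30, 8.77 and 8.28 to 9.82, 9.28 and 9.32. Without replicate 2 the medians were 0.84 and 0.89, and without HFD 1-month replicate 1 that of glycolysis was 0.33.

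Antioxidant genes under NRF2, the regulator of the response to oxidants, differed from these lists in that replicate 2 stayed with its group. The list means were -0.21, -0.08 and -0.18 at 1 month and 0.20, 0.13 and 0.21 at 4 months. Of 26 tested genes, 21 were positive with a median of 0.27, and 7 had no overlap upwards and 0 downwards (8.61% and 8.5% of all genes). None of the 26 passed, and the median was 0.21 to 0.28 with single HFD arrays left out. The quinone reductase Nqo1 read 8.89, 8.78 and 9.41 and then 10.18, 10.09 and 10.75, or 1.31 ± 0.38 (limma adjusted p = 0.408). The glutathione transferase Gstp1 stood at 0.62 ± 0.24 and the thioredoxin reductase Txnrd1 at 0.28 ± 0.11, both without overlap. In ND the values of Nqo1 and Txnrd1 were 1.13 ± 0.38 and 0.27 ± 0.11.

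**Figure D3:**
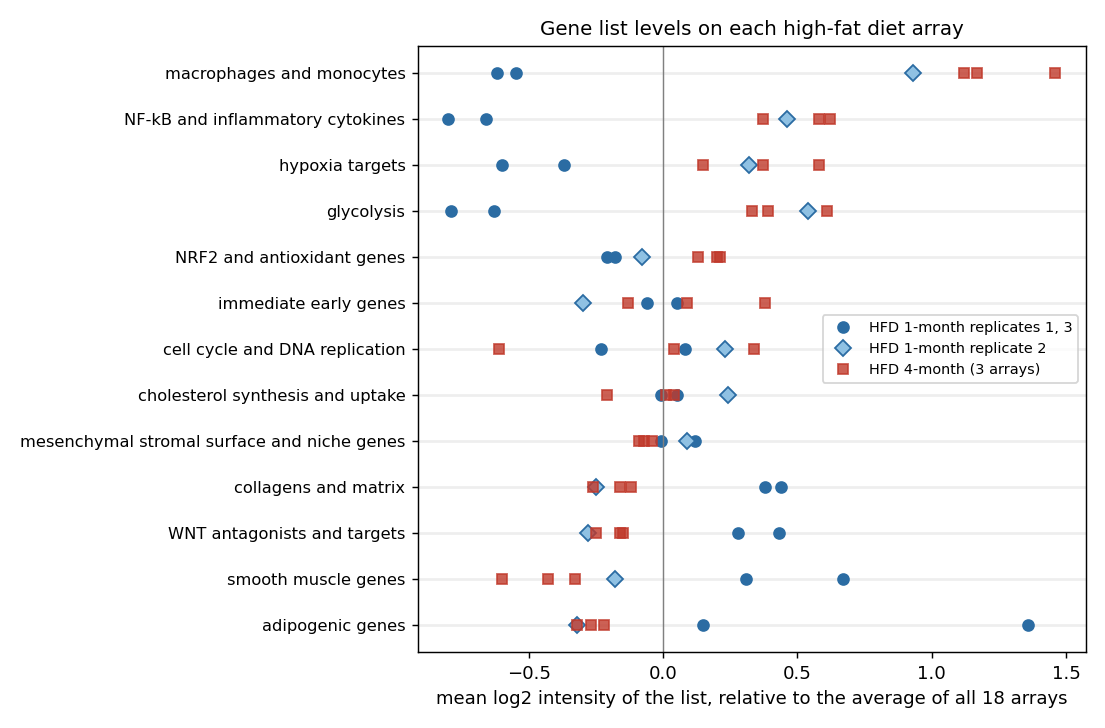
Mean log2 intensity of 13 gene lists on each of the 6 HFD arrays, relative to the average of all 18 arrays, over members with a value on every array. HFD 1-month replicate 2 (pale diamond) lies with or beside the 4-month arrays for macrophage, NF-kB, hypoxia, glycolysis, collagen and WNT genes, and apart from them for NRF2 genes.

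Markers of mesenchymal stromal cells were measured on all 6 arrays, beside the leukocyte and macrophage markers Ptprc, Cd68 and Mrc1 given above, which also lay above the filter level on each. Thy1 read 11.94 to 11.99 at 1 month and 11.71, 11.71 and 11.81 at 4 months, a log2 fold change of -0.22 ± 0.11 without overlap. The growth factor receptor Pdgfra read 10.08 to 10.87 and then 10.46 to 10.97, and Col1a1, the main collagen chain of bone stroma, 12.46 to 12.67 and then 12.41 to 12.48. Of 16 tested surface and niche genes (18 on the array), 7 were positive and 9 negative, with a median of -0.13, and 0 passed. The median was 0.03 without HFD 1-month replicate 1 and -0.23 without replicate 2. Pdgfrb, the receptor of pericytes and stromal progenitors, read 9.07, 8.25 and 8.74 and then 7.81, 7.75 and 7.72, or -0.93 ± 0.30 (limma adjusted p = 0.467). The BMP antagonist Grem1 stood at -0.81 ± 0.27, from 12.19, 12.03 and 11.98 to 11.30, 10.91 and 11.57. Both were separate between the groups, and all 3 probe sets of Pdgfrb were negative. Of the 16 genes, 3 had no overlap downwards and 1 upwards (8.5% and 8.61% of all genes). Alcam, also of this list, was positive, between 0.31 and 0.70 with single arrays left out.

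Smooth muscle genes, whose actin filaments mark contractile stromal cells, had the most one-sided lower values. Of 19 tested, 18 were negative with a median of -0.46, and 11 did not overlap downwards, against 8.5% of all genes. None passed. Tropomyosin Tpm2 read 12.97, 12.73 and 12.79 and then 12.56, 12.48 and 12.37, or -0.36 ± 0.09 (limma adjusted p = 0.393). Tpm1 stood at -0.48 ± 0.14 and caldesmon Cald1 at -0.34 ± 0.11. The myosin light chain Myl9 read 12.15, 11.35 and 11.88 and then 11.32, 11.12 and 10.87, and alpha smooth muscle actin Acta2 12.15, 11.24 and 11.79 and then 11.10, 10.99 and 10.79. In each of these genes replicate 2 was the lowest 1-month array and still above every 4-month array. The 6 other probe sets of Tpm1 did not all point down, with 2 of them at 0.07 and 0.13. In the 250 bases before the start, 0 of the 14 promoters found for the list held a CArG box, the site of serum response factor, against 501 of 33469 promoters (1.5%). Only the strict form of the box, with A or T alone between CC and GG, was searched. At a share of 1.5%, 14 promoters would mostly hold none, so the 0 does not show that these genes lack such sites. Desmin (Des) went the other way, with 4.93 to 4.98 at 1 month and 5.56, 6.75 and 6.2 at 4 months, or 1.22 ± 0.37. The list mean was 0.67, -0.18 and 0.31 and then -0.33, -0.43 and -0.60. Without replicate 2 the median was -0.70, and with the macrophage list mean as a covariate in the fit it was -0.42 with 17 of 19 negative.

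Matrix genes were more often lower than higher at 4 months. Of 44 tested collagens and other matrix genes, 31 were negative with a median of -0.23, 12 had no overlap downwards and 3 upwards (8.5% and 8.61% of all genes), and 0 passed. The largest absolute t belonged to lumican (Lum), a proteoglycan that spaces collagen fibrils. It read 11.81, 11.80 and 12.03 and then 10.83, 11.32 and 10.75, or -0.91 ± 0.21 (limma adjusted p = 0.335). The collagen IV chain Col4a1 read 11.45, 10.73 and 10.99 and then 9.10, 9.94 and 10.06, or -1.36 ± 0.36 (limma adjusted p = 0.393). Col4a2 stood at -0.93 ± 0.26, the laminin chain Lama4 at -0.60 ± 0.16 and the crosslinking enzyme Loxl1 at -0.92 ± 0.28. None of these 5 overlapped. Col1a1, by contrast, stood at -0.14 ± 0.11 with overlap. Without HFD 1-month replicate 2 the median was -0.41 with 36 of 44 negative. Without HFD 1-month replicate 1 or 3 it was -0.15 or -0.13, and without HFD 4-month replicate 1 it was -0.15.

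Matrix proteases and their inhibitors had no common sign, with 14 of 27 positive and a median of 0.04, between -0.01 without HFD 1-month replicate 3 and 0.20 without replicate 2. Besides Plat, the aggrecanase Adamts4 read 7.22, 7.22 and 6.63 and then 5.49, 5.85 and 5.87, or -1.28 ± 0.26 (limma adjusted p = 0.275). The inhibitors Timp2 and Timp3 stood at -0.31 ± 0.12 and -1.88 ± 0.65. Stromelysin Mmp3 read 3.42, 8.66 and 3.63 and then 8.92, 7.53 and 8.32, so that HFD 1-month replicate 2 alone bridged the groups.

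Growth factor and guidance genes had more negative than positive values. In the TGF-beta and BMP list 21 of 33 were negative, with a median of -0.21, and 8 had no overlap downwards and 0 upwards (8.5% and 8.61% of all genes). Without HFD 4-month replicate 1 the median was -0.11. Tgfb3 read 11.42, 9.74 and 10.99 and then 9.17, 9.51 and 8.95, or -1.51 ± 0.46 (limma adjusted p = 0.442). Bmp4, a bone-inducing ligand, read 8.92, 6.43 and 8.56 and then 5.75, 5.95 and 4.79. In both genes replicate 2 was the lowest 1-month array by more than 1 log2 unit, yet above the 4-month arrays. The receptor Bmpr1a stood at -0.28 ± 0.10 and the signal transducer Smad2 at -0.21 ± 0.10. Of 27 WNT genes, 19 were negative with a median of -0.14 (-0.35 without HFD 1-month replicate 2, -0.09 without replicate 1). Of these 27, 6 had no overlap downwards and 1, Axin2, upwards (8.5% and 8.61% of all genes). The secreted antagonist Dkk3 stood at -1.33 ± 0.42, the WNT enhancer Rspo3 at -0.75 ± 0.28 and the receptors Fzd8 and Fzd2 at -1.79 ± 0.67 and -0.76 ± 0.30. Guidance cues were negative for 19 of 31, with a median of -0.15 (-0.04 without HFD 1-month replicate 3; -0.09 once HFD 4-month replicate 3 is dropped), and with the receptor Ephb4 at 6.99, 6.89 and 6.96 and then 6.31, 6.59 and 6.34, and the ephrin ligand Efnb1 at -0.99 ± 0.29. The membrane protein Emp2 ran upwards, from 6.00 to 6.04 at 1 month to 6.49 to 6.89 at 4 months. No member of these 3 lists passed.

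Lipid genes, of interest under a diet rich in lard, gave small values. Cholesterol synthesis and uptake genes were negative for 15 of 19, with a median of -0.28 (-0.18 without HFD 1-month replicate 2). Of these 19, 9 had no overlap downwards and 0 upwards (8.5% and 8.61% of all genes). The sterol oxidase Msmo1 read 10.75, 10.87 and 10.70 and then 10.16, 10.33 and 9.91, or -0.64 ± 0.20 (limma adjusted p = 0.466), and Nsdhl and Hsd17b7, later enzymes of sterol synthesis, stood at -0.41 ± 0.25 and -0.43 ± 0.28. Stard4 went the other way, between 0.35 and 0.70 with single arrays left out, with other probe sets at 0.10 and 0.01. The ND median of the cholesterol list was -0.55. Fatty acid and triglyceride synthesis genes were negative for 14 of 21, with a median of -0.18 (-0.11 without HFD 1-month replicate 1). The fatty acid synthase Fasn read 9.58, 9.24 and 9.08 and then 8.60, 8.85 and 8.82, or -0.55 ± 0.14 (limma adjusted p = 0.393; -0.45 ± 0.16 in ND), and malic enzyme Me1 stood at -0.72 ± 0.23. No gene of these lists passed.

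Adipogenic and osteogenic genes, the fat and bone programmes of these cells, had single arrays apart. The adipokine Adipoq read 7.72 on HFD 1-month replicate 1 against 3.20 and 4.28 on the other 1-month arrays, and 3.10, 2.53 and 2.55 at 4 months. The adipsin gene Cfd read 11.30, 6.91 and 8.25 and then 7.41, 6.56 and 6.75. The transcription factor Cebpd went the other way, between 0.34 and 0.83 with single arrays left out, with other probe sets at 0.72 and 0.11. Of 18 tested adipogenic genes 12 were negative with a median of -0.34 (-0.06 without HFD 1-month replicate 1), and the list mean was 1.36, -0.32 and 0.15 and then -0.22, -0.32 and -0.27. The bone phosphatase Alpl read 6.99, 6.13 and 5.96 and then 4.14, 4.72 and 4.96, or -1.75 ± 0.53 (limma adjusted p = 0.427), with the groups separate. Osteopontin (Spp1), which macrophages also make, stood at 0.86 ± 0.37. Osteogenic genes as a list had a median of -0.08 over 12 genes, between -0.20 without HFD 1-month replicate 2 and 0 without replicate 1. Of these 12, 2 had no overlap downwards and 0 upwards (8.5% and 8.61% of all genes). No gene of either list passed.

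Proliferation genes did not separate the groups. Of 53 tested cell cycle and DNA replication genes, 0 were without overlap in either direction (8.61% of all genes upwards and 8.5% downwards). None passed, and 35 were negative, with a median of -0.09. HFD 4-month replicate 1 was the low array, with a list mean of -0.61 against 0.04 and 0.34 on the other 4-month arrays. Without it 46 of 53 were positive with a median of 0.15. Without HFD 4-month replicate 3 only 4 were positive with a median of -0.34, and over the other left-out HFD arrays the median ran from -0.27 to 0.00. The mitotic factor Foxm1, for example, read 5.62, 5.43 and 5.20 and then 4.47, 5.10 and 5.30. Among cell cycle inhibitors and p53 targets, Cdkn1a read 9.15, 9.47 and 9.15 and then 8.87, 8.93 and 8.81, and Cdkn2a, a marker of senescence, 6.96, 7.40 and 7.30 and then 6.96, 6.01 and 6.25. Their log2 fold changes were -0.39 ± 0.20 and -0.82 ± 0.40, and 12 of 19 genes of that list were negative with a median of -0.10, between -0.17 and -0.06 with single HFD arrays left out.

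Insulin and IGF axis genes had a median of -0.06 over 20 genes, between -0.11 and -0.02 with single HFD arrays left out. Of these 20, 2 had no overlap upwards and 1 downwards (8.61% and 8.5% of all genes). The growth factor Igf2 read 7.0, 4.80 and 7.25 and then 4.46, 4.22 and 4.37, or -1.99 ± 0.60 (limma adjusted p = 0.427). Its 3 other probe sets stood between -0.08 and 0.10, but they were dim, with means of 3.51 to 3.91 against the filter level of 3.22 log2 units. The transcription factor Foxo3, which insulin signalling keeps inactive, read 8.80, 9.20 and 8.97 and then 9.57, 9.71 and 9.60, or 0.64 ± 0.20 (limma adjusted p = 0.434), without overlap. Among 17 angiogenic factors, 11 were positive with a median of 0.17 (0.37 without HFD 1-month replicate 2; 0.28 once HFD 4-month replicate 3 is dropped). Apln, a peptide that acts on blood vessels, read 4.07, 7.5 and 4.91 and then 8.0, 8.57 and 7.28, and the fibroblast growth factor Fgf1 9.04, 6.49 and 8.44 and then 6.56, 5.54 and 5.21. In both, HFD 1-month replicate 2 overlapped the later arrays. Complement and acute phase genes were positive for 12 of 15, with a median of 0.32 (0.55 without HFD 1-month replicate 2; 0.16 once HFD 4-month replicate 2 is dropped). Among them C3, the central complement protein, read 4.62, 9.79 and 5.62 and then 9.85, 10.16 and 8.73, and the lipopolysaccharide-binding protein Lbp stood at 1.19 ± 0.51. No gene of these 3 lists passed.

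With the macrophage list mean as a covariate in the fit, 0 probe sets passed and the lowest adjusted p was 0.111. The median of the NF-kB list was then 0.43, that of hypoxia targets 0.30, of glycolysis 0.20 and of matrix genes -0.14, each nearer 0 than without it. Smooth muscle genes stood at -0.42 against -0.46 without it, NRF2 genes at 0.18 against 0.27, and cholesterol genes at -0.48 against -0.28, with 17 of 19 negative.

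**Figure D4:**
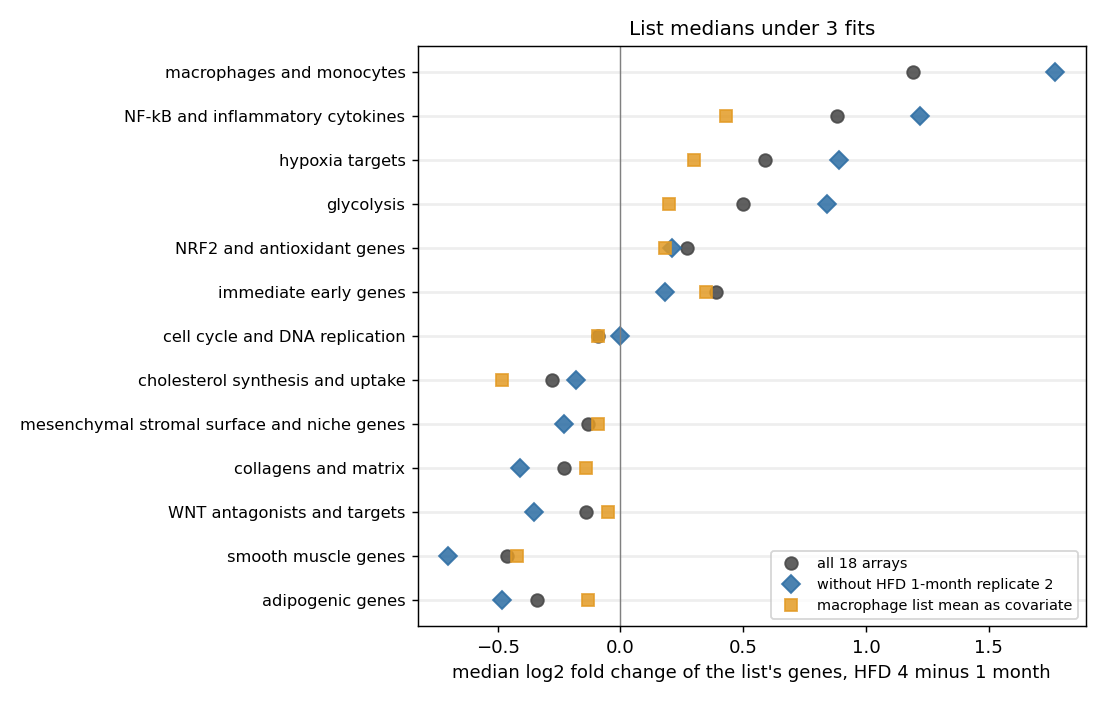
Median log2 fold change, HFD 4 minus 1 month, of 13 gene lists in the fit of all 18 arrays, without HFD 1-month replicate 2, and with the macrophage list mean as a covariate (not drawn for the macrophage list itself). NF-kB, hypoxia and glycolysis medians are largest without the array and smallest with the covariate, and the smooth muscle median is negative in all 3, between -0.70 and -0.42.

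Whether the values over feeding time differ between diets was tested as an interaction. Of 21729 probe sets 0 passed in limma, with 707 (3.25%) at an unadjusted p under 0.05, fewer than the 1086 expected by chance. ND itself gave 0 passing probe sets and 2040 (9.39%) at that level. The HFD and ND comparisons share no array, and over 11446 genes their log2 fold changes had a Pearson correlation of 0.692 and a Spearman correlation of 0.476, with the same sign in 63.7%; genes are not independent replicates, and arrays with a high macrophage mean occur in both diets. ND medians stood at 2.39 for macrophage genes, 0.95 for NF-kB genes, -0.48 for smooth muscle genes and -0.28 for matrix genes, each of the same sign as in HFD. Not every list kept its sign. Cell cycle genes had a median of 0.36 in ND, with 52 of 53 positive, against -0.09 in HFD. The HFD sign hung on 1 array: without HFD 4-month replicate 1 the median was 0.15 with 46 of 53 positive. The list mean on the ND 4-month arrays was 0.90, -0.55 and 1.19, with replicate 2 apart. Fatty acid oxidation genes stood at -0.38 in ND against 0.08 in HFD. The macrophage mean was 1.45, -2.01 and -3.19 on the ND 1-month arrays and 0.46, 1.77 and 0.10 on the ND 4-month arrays. A p that misses the threshold does not show that the diets act alike: the difference for Cd163 was 2.11 ± 2.62 and for Tpm2 -0.17 ± 0.13.

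**Figure D5:**
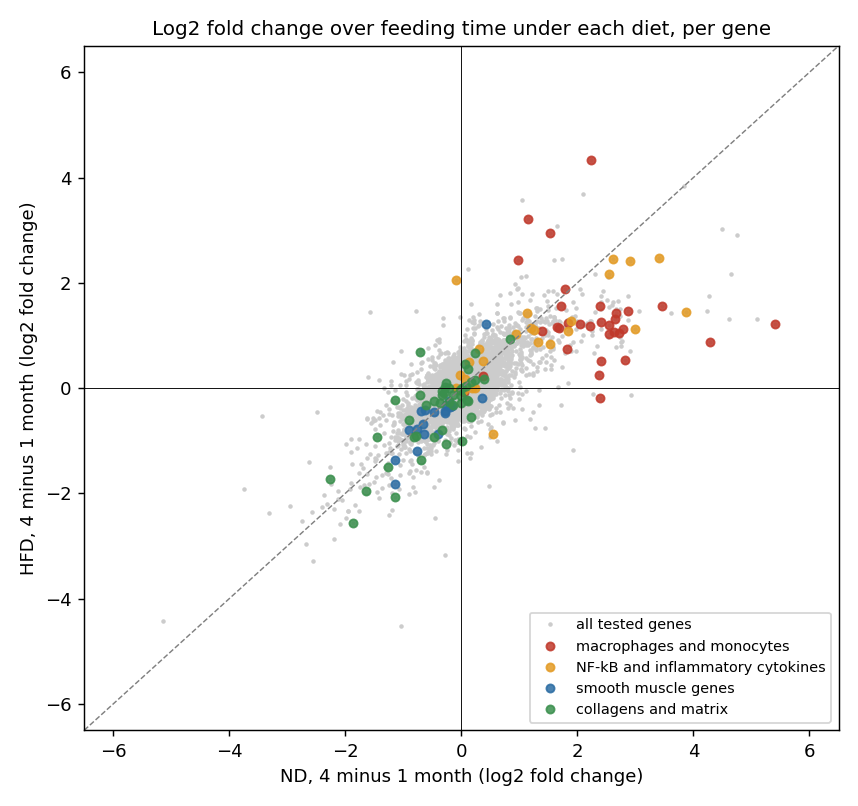
Log2 fold change, 4 minus 1 month, under HFD (vertical) against ND (horizontal) for 11446 genes, with 4 lists in colour and the diagonal dashed. Macrophage and NF-kB genes lie mostly in the upper right and smooth muscle and matrix genes mostly in the lower left.

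The genes with the most extreme t for the difference between diets did not pass either. Chn2 had the lowest, -1.40 ± 0.29 (unadjusted p = 0.000224 in limma; adjusted p = 1), the same gene that led the HFD comparison. Sult2b1, a sterol sulfotransferase, stood at -0.76 ± 0.19, the connexin Gjb1 at -0.65 ± 0.18 and the transport receptor Ranbp17 at -0.80 ± 0.21. LOC102549828 stood at -0.95 ± 0.24. The highest were Sfi1, a centrosome protein, at 0.96 ± 0.24, the WNT feedback inhibitor Axin2 at 0.74 ± 0.19, the exocyst subunit Exoc8 at 0.64 ± 0.17, Fsd1 at 0.61 ± 0.16 and the fatty acid oxidation enzyme Acadm at 0.73 ± 0.20. Axin2 read 4.57, 4.53 and 4.39 and then 4.70, 4.67 and 4.61 in HFD, and 5.25, 5.12 and 4.71 and then 4.45, 4.30 and 4.59 in ND, so most of its difference lay in ND. Acadm likewise stood at 0.15 ± 0.13 in HFD and -0.58 ± 0.15 in ND, where ND 1-month replicate 1 had no value.

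The 2-month HFD arrays share their neighbours with this comparison and give no independent support. Against 1 month, 17 probe sets (0.0782%) passed, and 4 against 2 months, 153 (0.704%). The macrophage median was -1.16 at 2 against 1 month and the smooth muscle median 0.06, so neither median at 2 months lay between 0 and its value at 4 months. Chn2 stood at -0.88 and Septin4 at -1.20 by 2 months, whereas Plat stood at -0.16 and Junb at 0.11.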

How the data were processed

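Total RNA was measured on 18 Affymetrix rat arrays, 3 per diet and feeding time. The authors deposited a linear intensity per probe set and array, and RMA is named, with no version, per the submitters' processing notes; build and annotation are not given in the sources used here. For ND 1-month replicate 1 the values were found 1343 rows off their probe sets and were moved (correlation with the other arrays 0.0909 before and 0.9901 after), which leaves its first 1343 probe sets without a value.

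Log2 was taken with no added constant. Of 31099 probe sets, 57 controls and the dimmest 30% (3.22 log2 units, 9.34 linear, or less) were left out. limma 3.58.1 under R 4.3.3 took all 18 arrays with their 6 group means, leaving 12 residual and 2.43 prior degrees of freedom; tests are two-sided at an adjusted p under 0.05. The number of arrays limits the precision. Symbols came from the platform annotation (20832 probe sets with 1 symbol, 436 with several, 9831 with none); 20766 matched RefSeq's GRCr8 gene table.

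The comparison and its 39 gene lists were chosen with earlier results of these data known. Named genes were the 6 highest and 6 lowest by t, since none passed, 5 each way for the difference between diets, up to 5 per described list by absolute t, and defining cell type markers; Il1b, Il6, Col1a1, Acta2 and the genes of the other observations were added after their values were seen. Promoters were searched over 250 bases. Replicate numbers do not pair arrays. The procedure was tested on simulated data. Alternatives covered filter, normalization, variance model, arrays in the fit, array weights, probe set choice, minimum change, covariates, replicate block and leaving out each array.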

Additional observations from a re-analysis of the deposited data

How the results depend on the processing

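With 3 arrays a group and intensities only, small differences and dim genes near the filter could not be resolved. The count of passing probe sets in HFD, 4 minus 1 month, was 0 in the fit of all 18 arrays. It was 1 with the compared groups alone (Shisal1, at -2.32), 434 with array weights, and between 0 and 2 when single arrays were left out. The 2 came without HFD 1-month replicate 2; leaving out HFD 4-month replicate 1 gave 1, as did leaving out ND 4-month replicate 2. In the other alternatives it was 0, the replicate block included (0, with 1664 at an unadjusted p under 0.05). The replicate numbers did not pair the HFD arrays: residuals of same-numbered arrays correlated at -0.0542, -0.031 and -0.193. For the difference between diets the count was 0 in every alternative.

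Of 5247 values of 151 named genes under alternatives, 5189 kept their sign without passing, 53 passed with the same sign and 5 changed sign. All 53 came from the fit with array weights. Many alternatives could not change a sign. Leaving out arrays of the other groups, or changing the filter or variance model, leaves a gene's HFD log2 fold change as it was. With ND 1-month replicate 1 as deposited, the diet difference was -0.27 for Acadm and 1.00 for Gjb1, and that column moved the median of all differences to -0.33. When single arrays were left out, Insr ran from -0.02 to 0.45 and Ccr1 from -0.63 to 0.31; with array weights Ccr1 stood at 0.12. The cause of these differences was not tested.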

Other observations

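Genes of protein synthesis and folding had small positive values in HFD, 4 minus 1 month. Of 18 tested ribosomal protein genes, 17 were positive with a median of 0.12, and 9 had no overlap upwards, against 8.61% of all genes; 0 passed in limma. Rpl3 read 12.31, 12.34 and 12.44 at 1 month and 12.52, 12.59 and 12.48 at 4 months, and Rpl18 12.00, 12.13 and 12.10 and then 12.16, 12.33 and 12.27. In ND the median of the list was -0.02, and the difference between diets had an adjusted p of 1 for each tested member. All 22 genes of the unfolded protein response and the ATF4 pathway were positive with a median of 0.19; 1 had no overlap, against 8.61% of all genes, and 0 passed. Without HFD 1-month replicate 2 that median was 0.11 with 17 positive, without HFD 4-month replicate 1 it was 0.18 with 17 positive, and it was 0.33 once 1-month replicate 3 of HFD is dropped. The serine pathway enzyme Shmt2 read 8.71, 8.84 and 9.05 and then 9.43, 9.29 and 9.53, and the amino acid transporter Slc7a5 stood at 0.69 ± 0.48 and the stress factor Atf3 at 0.75 ± 0.72.

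Markers of other blood and vessel cells were mostly too dim to test. Of the lymphocyte list 7 of 13 genes on the array passed the intensity filter, of endothelial genes 5 of 12, of granulocyte and mast cell genes 3 of 9 and of erythroid genes 3 of 8. The 5 endothelial genes went both ways, with 3 positive and a median of 0.04 (between -0.07 and 0.16 with single HFD arrays left out). In each direction 1 gene had no overlap (8.61% of all genes upwards and 8.5% downwards). The higher of these was the junction protein Esam, which read 5.20, 5.83 and 5.38 at 1 month and 6.83, 6.87 and 6.97 at 4 months, or 1.42 ± 0.36 (limma adjusted p = 0.393), and 1.13 ± 0.36 in ND. The lower was the receptor Flt1, at -0.26 ± 0.10. In iron and heme handling, 12 of 15 genes were positive with a median of 0.18, and the iron oxidase Heph read 5.49, 4.72 and 5.05 and then 7.21, 6.25 and 6.77, or 1.66 ± 0.96. Senescence-associated secreted factors, among them cytokines and proteases, were positive for 23 of 29 with a median of 0.31 (0.74 in ND, and 0.56 in HFD without 1-month replicate 2). Interferon response genes were positive for 18 of 25 with a median of 0.11 (0.24 without HFD 1-month replicate 2, and 0.23 or 0.07 once 4-month replicate 2 or 3 of HFD is dropped). Oxidative phosphorylation genes had a median of -0.01 over 29 genes, with 11 positive. Without HFD 1-month replicate 2 it was 0.03 with 18 positive, and dropping 4-month replicate 1 of HFD gave 0.01 with 16. Fatty acid oxidation genes had a median of 0.08 over 19, between 0.01 and 0.15 with single HFD arrays left out. No gene of these lists passed.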
